A study of Homo sapiens with 3 samples.

Results

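The sites of MATR3 on transcripts of 10 genes of DNA double-strand break repair were examined: XRCC6, XRCC5, PRKDC, XRCC4, ATM, ATR, PARP1, TP53BP1, BRCA1 and RAD51B. The members were chosen by name, as the clusters that carry one of these gene names in the authors' tables. They held 737 clusters, 247 of 133088 in replicate 1, 230 of 131679 in replicate 2 and 260 of 124040 in replicate 3, and the genes were 10 of 13550 with a cluster in any replicate. MATR3 (matrin 3) is an RNA-binding protein of the nuclear matrix. It was precipitated with an antibody from HEK293, a cell line of human embryonic kidney origin, of wild-type genotype and without treatment, in 3 biological replicates. In PAR-CLIP, a crosslinking and immunoprecipitation assay, cells take up a photoactivatable uridine analogue that light joins to bound protein and that is then read as a T-to-C change. A cluster is a stretch of overlapping reads with such changes. The 3 libraries form 1 group with no control library, and the files hold no measure of RNA abundance, so that every value is a level of reads in clusters and no treatment is compared.

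Double-strand breaks are repaired along 2 main routes. In non-homologous end joining the Ku heterodimer, made of the proteins of XRCC6 (Ku70) and XRCC5 (Ku80), caps the broken end and recruits the kinase DNA-PKcs, the product of PRKDC, and XRCC4 holds the ligase that seals the ends. In homologous recombination an intact copy serves as template, with BRCA1 promoting the resection of ends and RAD51B helping to load the recombinase. ATM and ATR are the kinases that signal broken and single-stranded DNA, PARP1 marks breaks with poly(ADP-ribose), and 53BP1, the product of TP53BP1, shields ends from resection. MATR3 is itself known as a substrate of ATM, and DNA that escapes repair can reach the cytosolic sensor cGAS, which the series title names.

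MATR3 clusters lay on all 10 genes in all 3 replicates, mostly inside introns, and the reads differed widely between genes. Among the 13550 genes the share seen in all 3 was 65.7%, and of protein-coding genes in the length range of the members 56.1% did. PRKDC and XRCC5 held 60.5% of the 8924 reads of the 10 genes. BRCA1, by contrast, had 3 clusters in each replicate. The sequences are from the deposited clusters, which equal hg38.

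Regions where clusters of all 3 replicates overlapped are shown first, because they are the positions that every library found. Of the 10 genes 3 had such a region, XRCC5 and PRKDC with 3 each and RAD51B with 1. Among all genes with clusters in all replicates, 19.2% had one. Of the stretches common to the 3 replicates, those in introns 2 and 14 of XRCC5 and in RAD51B follow, 5′ to 3′ in the sense of the transcript. Capitals mark ATCTT, a pentamer that MATR3 is known to bind, as AUCUU, in RNA.
XRCC5 intron 2 (chr2:216114739-216114771, plus strand): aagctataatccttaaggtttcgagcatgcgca
XRCC5 intron 14 (chr2:216152898-216152932, plus strand): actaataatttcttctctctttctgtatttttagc
RAD51B intron 7 (chr14:68211076-68211094, plus strand): ccttgATCTTctctctgag
Of these 3 stretches only that of RAD51B held ATCTT. The XRCC5 stretch in intron 14 was 74.3% pyrimidine and 54.3% T, and that in intron 2 was 48.5% pyrimidine. The stretches were thus unlike each other in composition. RAD51B is by far the longest of the 10 genes, and the region around its shared stretch lay 80782 nt from the nearest exon of the canonical transcript.

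Leading clusters, those with most reads of a gene in a replicate, are the strongest sites of their gene but need not be strong in the library. Those of BRCA1 had 7, 6 and 13 reads in replicates 1, 2 and 3. A choice of leading clusters is shown next for the 9 genes other than PRKDC. All of those with ATCTT are shown and only some of those without it, so the motif is over-represented among the sequences shown. Capitals again mark ATCTT. Clusters in the authors' UTR classes are given only around the motif.
XRCC6 replicate 3, intron 6 (chr22:41642233-41642292, plus strand): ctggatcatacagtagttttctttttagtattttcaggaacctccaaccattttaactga
XRCC5 replicate 1, intron 14 (chr2:216152898-216153031, plus strand): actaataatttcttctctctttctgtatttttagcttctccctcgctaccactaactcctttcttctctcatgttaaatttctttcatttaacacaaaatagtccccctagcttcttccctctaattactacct
XRCC5 replicates 2 and 3, part of the 3′ UTR cluster (chr2:216205496-216205524, plus strand): tctggaaagtagATCTTttcttgacctag
XRCC4 replicate 2, intron 1 (chr5:83077755-83077808, plus strand): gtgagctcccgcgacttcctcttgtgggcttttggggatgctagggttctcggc
ATM replicate 1, part of the cluster in intron 1 (chr11:108224428-108224456, plus strand): taggaaatccttATCTTttcgtttgaacc
ATR replicate 2, intron 1 (chr3:142574844-142574945, minus strand): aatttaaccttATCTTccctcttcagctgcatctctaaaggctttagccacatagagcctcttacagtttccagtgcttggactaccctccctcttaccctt
ATR replicate 3, intron 1 (chr3:142578193-142578380, minus strand): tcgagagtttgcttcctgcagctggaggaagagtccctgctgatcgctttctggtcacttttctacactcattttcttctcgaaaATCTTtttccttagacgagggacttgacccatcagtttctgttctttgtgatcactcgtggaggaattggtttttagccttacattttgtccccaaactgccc
PARP1 replicate 2, intron 1 (chr1:226406743-226406866, minus strand): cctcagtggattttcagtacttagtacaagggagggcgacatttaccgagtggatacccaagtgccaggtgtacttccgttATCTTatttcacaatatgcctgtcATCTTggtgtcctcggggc
TP53BP1 replicate 1, intron 10 (chr15:43471979-43472014, minus strand): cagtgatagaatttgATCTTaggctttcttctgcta
BRCA1 replicate 1, intron 13 (chr17:43075075-43075110, minus strand): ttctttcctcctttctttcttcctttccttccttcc
BRCA1 replicate 3, intron 12 (chr17:43081176-43081216, minus strand): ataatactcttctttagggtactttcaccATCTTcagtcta
RAD51B replicate 3, intron 7 (chr14:68009883-68009915, plus strand): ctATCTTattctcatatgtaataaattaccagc
Of the 30 leading clusters, 1 per gene and replicate, 27 were classed as intronic, as were 703 of all 737. ATCTT was in 10 of the 30 leading clusters and in 9.34% of all gene-named clusters. The leading clusters ranged from 31 to 227 nt and many were longer than the mean of 48.2 nt, so these shares are not compared. The BRCA1 cluster shown for replicate 1, which tied with another at 7 reads, was made of pyrimidines only. Its 7 reads came from 1 distinct read, so its evidence is thin. The BRCA1 cluster of replicate 3 held the motif. The leading cluster overlapped a cluster of another replicate in 8 of the 30. Of all 737 clusters 144 did, and of all gene-named clusters 21.7%. The leading clusters were picked for their reads, so these shares are not compared either. The leading cluster was the same site in 2 replicates for XRCC5, in the 3′ UTR in replicates 2 and 3. The same held for XRCC4, near the start of intron 1 in replicates 1 and 2.

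The genes of the Ku heterodimer and DNA-PKcs are described first. Levels are given as normalised reads, the summed reads of the gene scaled to 1000000 reads over all clusters with a gene name in that replicate. XRCC5 (chromosome 2, 216107464 to 216206303, plus strand, hg38) had 473, 480.4 and 849.9 normalised reads in replicates 1, 2 and 3, with 46, 46 and 79 clusters. Replicate 3 was high and the other 2 were alike, and the mean was 601 normalised reads ± 216 (SD, n = 3). PRKDC (chromosome 8, 47773111 to 47960178, minus strand) had 746, 681 and 692 normalised reads in 70, 71 and 77 clusters. Its mean of 706 ± 34.6 (SD, n = 3) was the highest of the 10 genes, and its replicates stood closer together than those of XRCC5. XRCC6 (chromosome 22, 41621163 to 41664048, plus strand) had 98.0, 72.3 and 69.9 normalised reads in 11, 11 and 7 clusters. The Ku genes thus differed, with every XRCC5 value above every XRCC6 value.

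XRCC4, whose protein forms a complex with DNA ligase IV, was at the low end. The gene (chromosome 5, 83077498 to 83353787, plus strand) had 32.5, 33.1 and 13.2 normalised reads in 6, 7 and 3 clusters, all of them in introns. Of its 16 clusters 8 lay in intron 1, which makes up 9.94% of the intron length, and 3 in intron 7, the longest with 34.4%. The 3 clusters in intron 7 were all in replicate 2.

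Among the signalling kinases ATR had more reads than ATM. ATR (chromosome 3, 142449007 to 142578733, minus strand) had 179, 201 and 173 normalised reads in 23, 22 and 15 clusters. ATM (chromosome 11, 108223044 to 108369102, plus strand) had 53.9, 112 and 53.7 normalised reads in 8, 15 and 11 clusters. Replicate 2 was high for ATM, and no ATM value reached the lowest ATR value. PARP1 (chromosome 1, 226360210 to 226408154, minus strand) had 221, 218 and 309.8 normalised reads in 26, 24 and 34 clusters. Replicate 3 was the highest for PARP1 as it was for XRCC5.

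TP53BP1 (chromosome 15, 43403061 to 43510728, minus strand) had 50.4, 31.6 and 48.6 normalised reads in 11, 5 and 7 clusters. BRCA1 (chromosome 17, 43044295 to 43170245, minus strand) had 13.8, 12.8 and 20.6 normalised reads, from 20, 17 and 28 reads. RAD51B (chromosome 14, 67819779 to 68730218, plus strand) had 253, 139 and 139.8 normalised reads in 43, 26 and 24 clusters, with replicate 1 high. BRCA1 was the lowest of the 10 genes in replicates 1 and 2 and XRCC4 in replicate 3. The highest mean, of PRKDC, was 44.9-fold the lowest, of BRCA1.

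Genes were compared per length, because a longer gene offers more sequence to bind. Per kb of gene, XRCC5 had 6.08 normalised reads ± 2.18, PARP1 5.21 ± 1.09, PRKDC 3.78 ± 0.185, XRCC6 1.87 ± 0.364 and ATR 1.42 ± 0.114 (SD, n = 3). ATM had 0.502 ± 0.231, TP53BP1 0.404 ± 0.0962, RAD51B 0.195 ± 0.0718, BRCA1 0.125 ± 0.0337 and XRCC4 0.0951 ± 0.0409 (SD, n = 3). The annotated BRCA1 gene is 126 kb long and its canonical transcript spans 81.1 kb, over which its level was 0.194 ± 0.0524 (SD, n = 3). From XRCC5 to XRCC4 the means spanned 63.9-fold. Over 8154 protein-coding genes with clusters in all 3 replicates the median was 1.55 normalised reads per kb. Of the 10 genes 4 lay above it, where 50% of these genes lie by definition, and their own median was 0.961. The members are long genes, with a median length of 128 kb against 45.4 kb, and 7 of the 10 lay above the median of 64.0 normalised reads per gene.

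**Figure D1:**
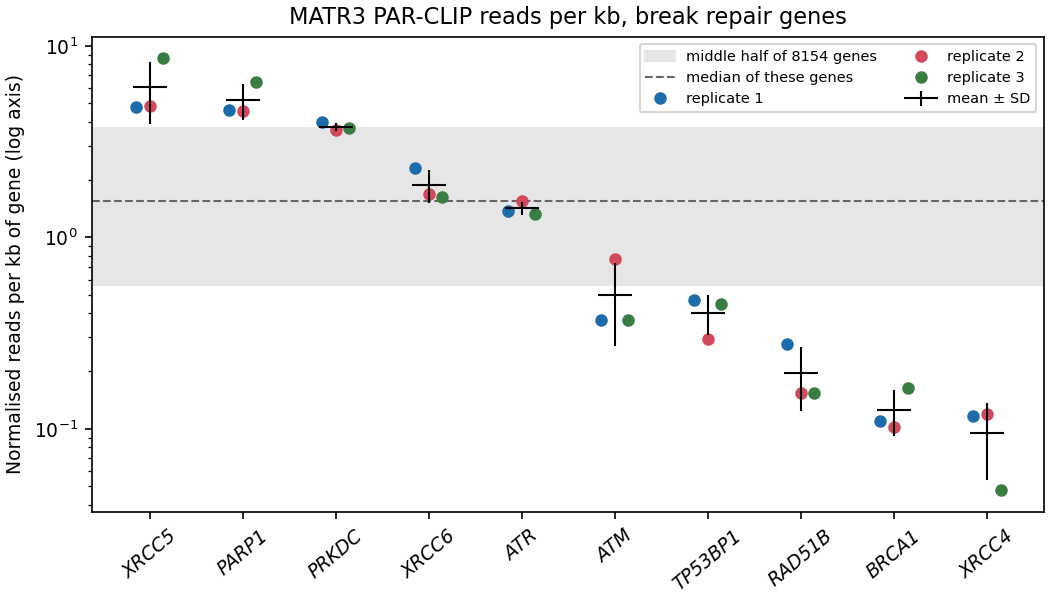
Normalised reads per kb of gene on a log axis for the 10 genes, with each replicate as a point, the mean and SD in black, and the median and middle 50% of 8154 protein-coding genes in grey. XRCC5 and PARP1 stand above the grey band in all 3 replicates, and TP53BP1, RAD51B, BRCA1 and XRCC4 stand below it.

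Neighbours in this order were set against their spread, with the difference of log2 reads per kb taken within each replicate. The order is that of the same means, so the sign of each mean difference is given by it and is no finding. In 5 of 9 pairs the difference kept its sign in every replicate and was larger than its SD. PARP1 exceeded PRKDC by 0.45 ± 0.32, PRKDC exceeded XRCC6 by 1.03 ± 0.20 and XRCC6 exceeded ATR by 0.38 ± 0.31 on the log2 scale (SD, n = 3). ATR exceeded ATM by 1.59 ± 0.50 and TP53BP1 exceeded RAD51B by 1.08 ± 0.42 (SD, n = 3). The exact two-sided sign-flip p cannot go below 0.25 with 3 replicates, so no pair could pass a test at 0.05, and these 5 are a description. Each had a p of 0.25 in that exact test, or 0.375 after Benjamini-Hochberg adjustment over the 9 pairs. The difference of XRCC5 and PARP1 was within its spread, at 0.19 ± 0.20, as was that of ATM and TP53BP1, at 0.25 ± 0.99 (SD, n = 3). RAD51B and BRCA1, at 0.61 ± 0.72, and BRCA1 and XRCC4, at 0.48 ± 1.12, were also within it (SD, n = 3). The order of ATM and TP53BP1 rested on replicate 2, without which the difference was -0.32, and that of BRCA1 and XRCC4 on replicate 3, without which it was -0.17.

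**Figure D2:**
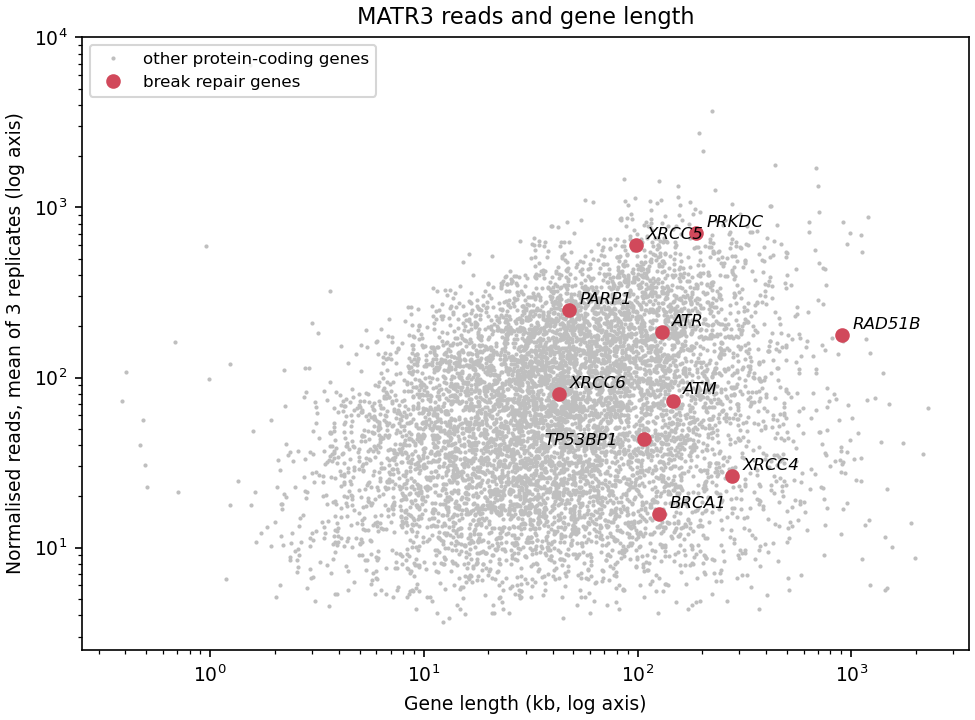
Mean normalised reads of 3 replicates against gene length, both on log axes, for 8154 protein-coding genes in grey and the 10 repair genes in red. PRKDC, with 706 normalised reads, lies near the top of the genes of its length, while RAD51B, the longest at 910.4 kb, has 177.

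By the authors' classes, introns held 95.4% ± 1.42 of the clusters of the 10 genes, against 83.4% ± 0.421 of all other clusters with a gene name (SD, n = 3). The values were 96.8%, 93.9% and 95.4% against 83.9%, 83.3% and 83.1% in replicates 1, 2 and 3, and did not overlap. Clusters in 3′ UTRs made up 0.938% ± 0.570 against 5.85% ± 0.412, and coding clusters 0.843% ± 0.776 against 1.99% ± 0.188 (SD, n = 3). All clusters of ATR, XRCC4 and RAD51B were intronic, 60, 16 and 93 of them. Of the 34 clusters of the 10 genes that were not classed as intronic, 12 belonged to ATM in the 5′ UTR classes and 4 to XRCC5 in the 3′ UTR. The shares take no account of how long introns and UTRs are. The other clusters include those of noncoding genes, which can carry classes of their own, such as processed transcript, and then lower the intron share. A share over other protein-coding genes alone was not computed.

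The 3′ UTR of XRCC5 held the cluster with most reads of all 10 genes. It began at the same position, chr2:216205483-216205709 with 111 reads in replicate 2 and chr2:216205483-216205690 with 109 reads in replicate 3, from 51 and 40 distinct reads. Replicate 1 had no cluster there, and its single 3′ UTR cluster, at chr2:216205936-216205990, had 22 reads. In the 2 large clusters 47.7% and 55.0% of reads carried a T-to-C change, against 80.1% and 81.6% over all XRCC5 clusters of those replicates. The next largest XRCC5 cluster was in intron 1 in replicate 3 alone, at chr2:216111059-216111246, with 104 reads of which 72.1% carried the change. No cluster of intron 1 was listed in replicates 1 and 2.

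The ATM clusters classed as 5′ UTR were not in exon 1 of the canonical transcript, the single transcript that Ensembl picks for a gene. All 11 of them, 2, 5 and 4 in replicates 1, 2 and 3, lay in its intron 1, and a further cluster crossed the end of exon 1. The same held for the 2 XRCC6 clusters classed as 5′ UTR. ATM intron 1 is 4.41 kb long, 3.31% of the intron length of the gene, and held 34.4% of the clusters and 39.6% of the reads in ATM introns. None of these ATM clusters overlapped a cluster of another replicate. The positions were thus close together but not the same.

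Introns with a cluster numbered 31 of 85 in PRKDC, 10 of 62 in ATM, 9 of 46 in ATR, 10 of 27 in TP53BP1, 4 of 22 in BRCA1 and 4 of 12 in XRCC6. They were the majority in the other genes, with 14 of 20 in XRCC5, 13 of 22 in PARP1, 5 of 7 in XRCC4 and 7 of 10 in RAD51B. PRKDC intron 40, its longest, makes up 7.47% of the intron length and held 17.8% of the intron clusters and 25% of the reads, with 301, 112 and 308 reads in replicates 1, 2 and 3. Introns 54 and 68 held 15.5% and 13.1% of the clusters on 5.16% and 5.83% of the length. In XRCC5, 34 clusters in intron 14 made up 20.9% of the clusters and 27.7% of the reads on 12.6% of the length. Of these 34 clusters 21 overlapped a cluster of another replicate, against 8 of 61 in the longer intron 16.

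In ATR, 24 of 60 clusters lay in intron 1, which is 8.65% of the intron length, and these held 122, 124 and 110 reads in replicates 1, 2 and 3. Intron 36, the longest of ATR, had none. XRCC6 had 14 of 28 intron clusters in intron 6, on 22.4% of the length, and none of these 14 overlapped a cluster of another replicate. Of the 93 RAD51B clusters, 7 lay beyond the canonical transcript. The other 86 were in its introns, 72 of them in intron 7, which is 405 kb long and makes up 61.6% of the intron length. BRCA1 had 4 of 9 clusters in intron 12, of which 3 came from replicate 3. In all 10 genes the intron with most reads had a larger share of the clusters than of the length, but it was picked for its reads, so this is a description. It was the longest intron in 6 of the 10.

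**Figure D3:**
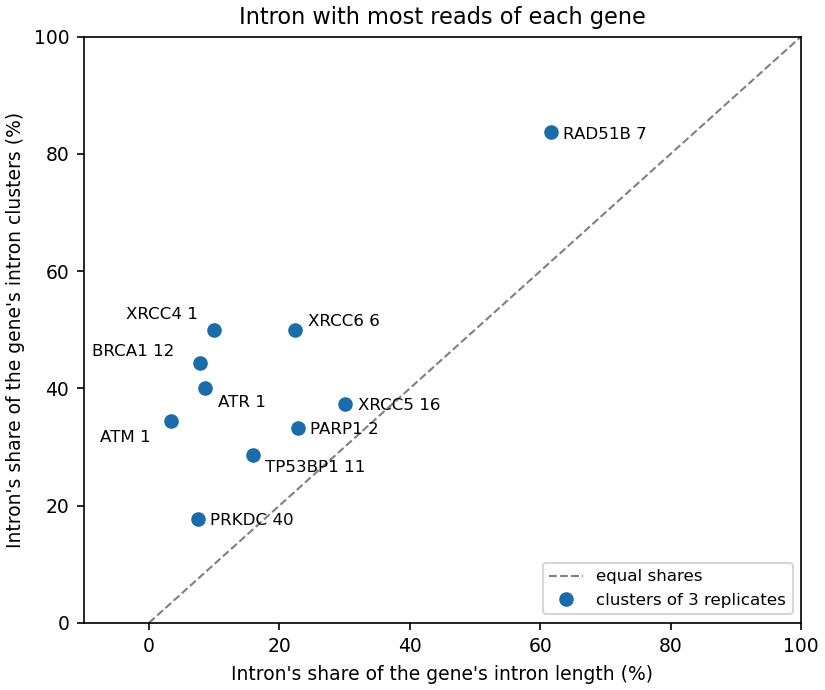
For the intron with most reads of each gene, its share of the clusters in introns of the gene (vertical axis, %) against its share of the intron length (horizontal axis, %), over 3 replicates, with the intron number after the gene name. All 10 points lie above the dashed line of equal shares, with XRCC5 intron 16 closest to it and XRCC4 intron 1, with 8 of 16 clusters, on 9.94% of the length.

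Along the transcripts, clusters of the 10 genes had a median position at 46.5% ± 1.20 of the canonical span, counted from the 5′ end, against 40.8% ± 0.920 for other protein-coding genes (SD, n = 3). Intron 1 held 8.80% ± 1.71 of their intron clusters, against 33.9% ± 0.978 (SD, n = 3). Each difference kept its sign in every replicate and exceeded the spread, but most of the clusters came from PRKDC and XRCC5, which have 85 and 20 introns. The median distance to the nearest exon was 1958 nt ± 235 against 2463 nt ± 147, and 5.57% ± 1.86 against 7.33% ± 0.226 of clusters lay within 200 nt of an exon (SD, n = 3). The replicate values of the latter overlapped, with 5.08%, 7.62% and 4.0% against 7.07%, 7.41% and 7.50%.

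**Figure D4:**
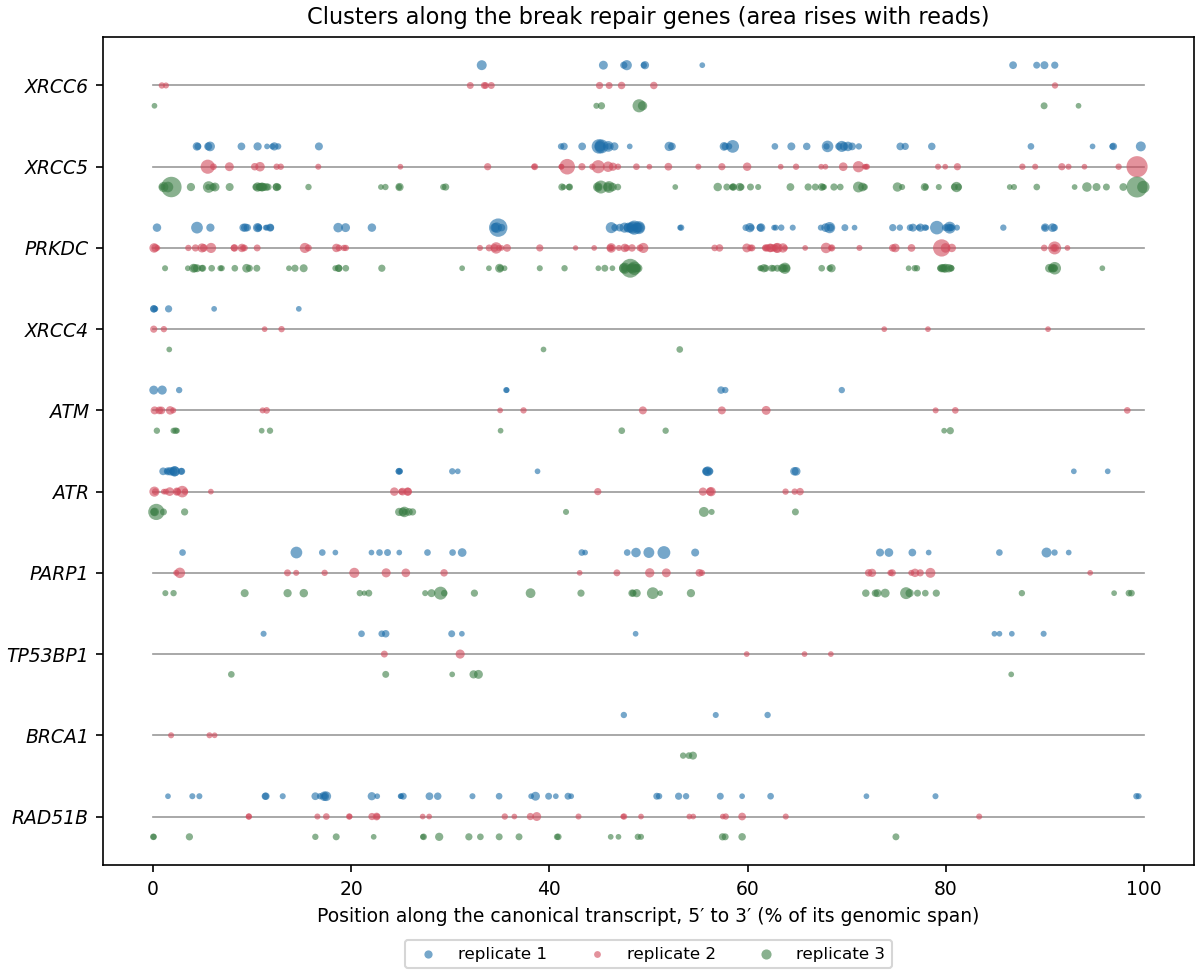
Clusters of the 10 genes along the genomic span of the canonical transcript, 5′ to 3′ in % of its length, with 1 row of points per replicate and point area rising with reads. The ATR clusters of intron 1 gather at the 5′ end, the large XRCC5 points at the 3′ end are the 3′ UTR clusters of replicates 2 and 3, and BRCA1 has 9 points in all.

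Recurrence was measured as the share of clusters that overlapped a cluster of another replicate on the same strand, with 1 nt enough. Of the 737 clusters 144 did, and 23 overlapped clusters of both other replicates. The mean over replicates was 19.5% ± 2.85 (SD, n = 3), with 16.6%, 19.6% and 22.3%, where 21.7% of all gene-named clusters did. The members were thus close to the background. Overlap with both others was seen for 3.15% ± 0.668 of the clusters of the 10 genes (SD, n = 3), against 2.53% of all gene-named clusters. With overlap of at least 50% of both clusters the share in another replicate was 8.36%.

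Recurrence differed between the genes. In PRKDC 58 of 218 clusters, in XRCC5 46 of 171 and in ATR 13 of 60 overlapped a cluster of another replicate. PARP1 had 12 of 84, XRCC6 4 of 29, XRCC4 2 of 16, RAD51B 7 of 93 and TP53BP1 2 of 23. ATM, with 34 clusters, and BRCA1, with 9, had none. Over the 5 genes with most reads per kb the share was 23.7% of 562 clusters, and over the other 5 it was 6.29% of 175. An overlap counts in both replicates, so these clusters are not independent. The density of clusters moved with the share. After clusters were moved by 1000 nt up and down the chromosome, on average 8.41% overlapped a given other replicate in the former genes and 0.571% in the latter, against 13.6% and 4.0% in place. The part of density in the recurrence was not tested further. Without PRKDC and XRCC5 the mean recurrence was 11.6%.

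Regions with clusters of at least 2 replicates numbered 64 over the 10 genes, of which 62 lay in canonical introns and 45 in PRKDC and XRCC5. In XRCC5, 4 runs of overlapping clusters joined all 3 replicates. The one in intron 14, chr2:216152825-216153031, had 50, 41 and 29 reads in replicates 1, 2 and 3. The one in intron 2, chr2:216114612-216114830, had 13, 48 and 37 reads. The one in intron 16, chr2:216178291-216178421, had 7, 29 and 27 reads, with 38 nt common to all 3. Another, also in intron 14 at chr2:216153823-216153908, had 26, 25 and 17 reads but no base common to all 3. In RAD51B the shared region, chr14:68211062-68211102, had 5, 12 and 11 reads from 1, 2 and 2 distinct reads. Its evidence is thus thinner than that of these XRCC5 regions, which had 3 to 22 distinct reads per replicate.

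PRKDC had 4 such runs, at chr8:47789876-47790096 in intron 74, chr8:47810577-47810640 in intron 68, chr8:47871066-47871177 in intron 40 and chr8:47923702-47923805 in intron 21. They held 10, 52 and 46 reads, 9, 20 and 17 reads, 23, 15 and 29 reads, and 17, 7 and 8 reads in replicates 1, 2 and 3. The stretches common to all 3 were 4, 10 and 24 nt long in introns 74, 68 and 40, and there was none in intron 21. Intron 40 also held the largest PRKDC cluster of replicate 3, chr8:47869984-47870155 with 88 reads.

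**Figure D5:**
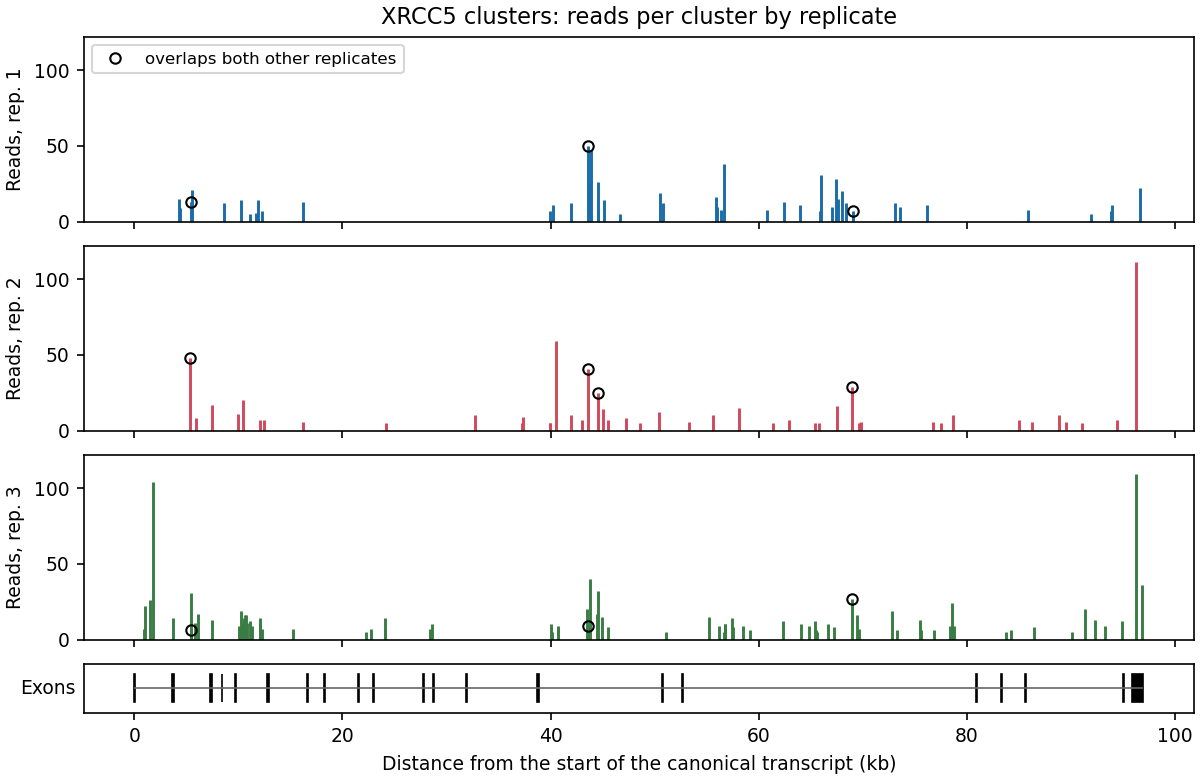
Reads per cluster (vertical axis) along XRCC5 by distance from the start of the canonical transcript in kb, for replicates 1, 2 and 3, with its exons below. Open circles mark clusters that overlap clusters of both other replicates, and the tallest bars, of 111 and 109 reads, are the 3′ UTR clusters of replicates 2 and 3.

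The sequence of the clusters was set against that of whole genes. ATCTT was present in 12.5% ± 0.674 of the clusters of the 10 genes, with 11.7%, 13.0% and 12.7% in replicates 1, 2 and 3, against 9.33% ± 0.396 of the other gene-named clusters (SD, n = 3). The values did not overlap, and over all gene-named clusters the share was 9.34%. Mean cluster length was 48.2 nt ± 2.91 and 48.2 nt ± 2.72 (SD, n = 3). Within introns the shares were 12.3% ± 0.860 and 9.68% ± 0.367 (SD, n = 3). Per kb of cluster there were 2.76 copies over the 10 genes pooled, against 1.54 per kb of their whole spans on the sense strand. For other protein-coding genes with clusters in all replicates these densities were 2.09 and 1.48.

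Over the 3 replicates pooled, the density of ATCTT was higher in clusters than in the span in each of the 10 genes, but some genes had few copies. BRCA1 had 1 cluster with the motif, in replicate 3, and XRCC4 had 2, both in replicate 2. Without replicate 3 the density in BRCA1 was 0, without replicate 2 that in XRCC4 was 0, and 9 of 10 genes were then above their span in each case. In TP53BP1 it was 5.69 against 1.5 per kb, in ATR 4.27 against 1.70 and in ATM 3.65 against 1.54. In PARP1 it was 1.62 against 1.33 per kb. Pyrimidines made up 57.1% of cluster bases against 50.9% of the spans and were higher in clusters in 10 of 10 genes, and T was higher in 9 of 10. In other protein-coding genes with clusters in all replicates, pooled, pyrimidines made up 57.1% of cluster bases and 51.1% of spans. The pyrimidine contrast is thus not particular to the 10 genes. The share of all genes with such a contrast was not computed. Each deposited cluster has at least 2 converted T positions, so the T content of clusters is set in part by that limit. ATCTT is rich in T, so its density in clusters against spans falls under the same limit. T made up 33.2% ± 1.04 of cluster bases in the 10 genes and 31.3% ± 0.892 in the other gene-named clusters (SD, n = 3). The part of T content in the shares with ATCTT was not tested. GC made up 44.4% of cluster bases in the 10 genes and 47.9% in the other genes, and 40.2% and 41.8% of their spans.

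The level of the T-to-C change was the last readout compared. In intron clusters, conversion per T position was 10.3% ± 0.370 in the 10 genes and 10.9% ± 0.376 in other genes (SD, n = 3). The difference was -0.555, -0.863 and -0.495 percentage points in replicates 1, 2 and 3, with a mean of -0.638 ± 0.198 (SD, n = 3). Without PRKDC and XRCC5 it was -0.300 ± 0.417, within the spread (SD, n = 3). The direction also turned with the measure. As a share of reads with a T-to-C change, the 10 genes had 88.2% ± 0.201 and the others 87.5% ± 0.623, a difference of 0.748 ± 0.824, above 0 in 3 of 3 replicates but within the spread (SD, n = 3). By gene, over all cluster classes, conversion per T ranged from 9.43% ± 1.1 in XRCC6 to 11.9% ± 1.84 in ATM (SD, n = 3).

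A wider list of 57 other genes of break repair, chosen with earlier results of these data known, was examined. Clusters in all 3 replicates were found for 46 of them, for 1 in 2 replicates, for 5 in 1 and for 5 in none. The 46 are 80.7% of the 57, against 40.7% of all protein-coding genes. The latter share is over 20018 genes of any length, whether or not these cells express them. The 2 shares are thus a description and no test of the list. Of the 52 with a cluster in any replicate they are 88.5%. Among all gene names with a cluster in any replicate, noncoding and unmatched names included, the share was 65.7%. By group, 22 of 24 genes of homologous recombination, 16 of 18 of sensing and signalling, 4 of 9 of end joining and 4 of 6 of alternative end joining had clusters in all 3. Genes with none in these tables included PAXX, POLM, PARP3 and RPA3, named after their values were seen. The tables start at 4 reads per cluster, so weaker sites were not detectable.

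The 5 genes of the list with the largest geometric mean of normalised reads were POLQ, APTX, LIG3, MRE11 and CHEK1. POLQ, the polymerase of alternative end joining, had 264, 193 and 385 normalised reads in replicates 1, 2 and 3. APTX, which removes adenylate from broken ends, had 277, 206 and 309.8. LIG3, a DNA ligase, had 242, 342 and 207. MRE11, the nuclease of the complex that first binds breaks, had 321, 212 and 228, and CHEK1, the kinase that ATR activates, had 345, 236 and 156. All of these values lay above those of XRCC6 and below those of XRCC5. BRCA2, which loads the recombinase, had 15.2, 14.3 and 23.5 normalised reads, close to the values of BRCA1.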

How the data were processed

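MATR3 PAR-CLIP clusters of 3 biological replicates of wild-type HEK293 cells were analysed from 1 deposited table per replicate. Read, distinct read and conversion numbers are raw counts per cluster, per the file headers. The deposited T-to-C share of a cluster is a fraction between 0 and 1. The deposited conversion specificity (log10) and mode score, per the file headers, were not used. Clusters were called in each replicate separately. The build is hg38, per the submitters' processing notes, and the sequences of all clusters equalled hg38. Aligner, caller and annotation release are not given in the sources used here. Every deposited cluster had at least 4 reads and 2 conversion locations. Reads in clusters were 1649124, 1506682 and 1532602. Full library depth is unknown, and amplified copies of a molecule can add to the reads. The labels call the replicates biological.

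Spans, canonical transcripts and introns came from GENCODE release 44, and 92.0% to 92.5% of gene names matched it directly or through RefSeq synonyms. Python 3.11.15 and pandas 2.3.3 were used, and the functions were tested on simulated data. Members and lists were chosen with earlier results of these data known, so no p-value was computed over the list. Named were all 10 members, their leading clusters and shared regions, and the 5 other repair genes with most reads. BRCA2 and 4 genes without clusters were named after their values were seen.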

Additional observations from a re-analysis of the deposited data

Results flagged for a closer look

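Clusters on the strand opposite to the 10 genes entered no comparison. They are given here because, with no control library, their reads exceed 3, the limit for a count of 0, as those of every listed cluster do. There were 14, 18 and 15 of them in replicates 1, 2 and 3, with 212, 226 and 178 reads and a mean of 205 reads per replicate. They lay in the spans of 5 genes. In the span of BRCA1, 33 such clusters carried the name of NBR2, a divergent transcript next to BRCA1, with 146, 176 and 160 reads, more than the 20, 17 and 28 reads of BRCA1 itself. The GENCODE span of BRCA1 ends at 43170245 and its canonical transcript at 43125364, so this span takes in a neighbour. In the span of TP53BP1, 7 of 11 such clusters carried the name of TUBGCP4, all in its 3′ UTR.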

How the results depend on the processing

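Of 111 recomputed values, 89 kept their sign, stayed within 1.5 times a count or differed from the reported value by less than 1 SD. Among the main results 44 values did so, 18 moved and 1 changed sign. The other 45 that held and 3 that changed sign were mostly differences between neighbours. Those were judged by sign alone, in an order set by the same means, so the pooled count says little about stability. The count of members in all 3 replicates was 8 with at least the median read count or 3 distinct reads. It was 9 with 3 conversion locations. Without RAD51B it was also 9, which is every member left. With at least the median read count, 15.4% of clusters held ATCTT and the median over members was 0.758 reads per kb. With 3 conversion locations these were 16.8% and 0.622, and with 3 distinct reads 14.4% and 0.807, with recurrence at 24.0%. Without RAD51B the median was 1.42 reads per kb. Weighting by reads gave 93.5% in introns and a recurrence of 28.5%, and overlap of 50% of both gave 8.36%. With 1 replicate left out, recurrence ranged from 8.82% to 14.3%, since each cluster then met 1 other library in place of 2. Extending clusters by 20 nt to each side gave 18.4% with ATCTT. The conversion difference changed sign as a share of reads, at 0.748. Chosen after seeing the data, removal of PRKDC and XRCC5 gave 93.9% in introns, a recurrence of 11.6% and a conversion difference of -0.300. Between neighbours, ATM minus TP53BP1 on the log2 scale ranged from -0.32 to 0.55 with 1 replicate left out and was -0.01 with the canonical span, also chosen after seeing the data, and BRCA1 minus XRCC4 ranged from -0.17 to 0.84 with 1 replicate left out and was 1.11 with the canonical span. For the other changes the cause was not tested. No paired analysis was possible because 1 group leaves no groups to pair. Differences between genes were taken within each replicate throughout.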
